A study of Mus musculus with 18 samples.

Results

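The β-globin gene cluster of the mouse lies on chromosome 7 among olfactory receptor genes, and the contacts of its promoters with both of these flanks were followed in erythroid cells. The flanks were taken as all DpnII restriction fragments of mm9 whose midpoint falls in chr7:110000000-110919999 or in chr7:111060001-112000000. They hold 5166 of the 370799 DpnII fragments of chromosome 7, of which 2512 lie on one side and 2654 on the other. A count was listed on 3803 of them in at least 1 sample, 1923 and 1880 on the respective sides. The globin genes are transcribed towards lower coordinates, so the side with lower coordinates is called the 3′ flank here and the side beyond the locus control region is called the 5′ flank.

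Contacts were measured by NG Capture-C, in which crosslinked chromatin is cut with DpnII, ligated, and enriched with oligonucleotides for the ligation products of chosen fragments, the viewpoints. Each deposited value is the count of unique ligation products between a viewpoint and another fragment, here called an interaction count. All samples were Ter119+ erythroid cells, selected with magnetic beads from spleens of adult C57BL/6 mice (C57BL/6J in the study's methods) made anaemic with phenylhydrazine. Experiment 1 compared wild type (WT) with ∆44/48 (labelled D4448), in which CTCF binding sequences at HS +44 and HS +48, downstream of the α-globin genes on chromosome 11, are mutated. Experiment 2 compared another set of WT samples with ∆θ1, ∆θ2 and ∆θ1/θ2, which carry mutated CTCF sites at the θ-globin genes of the same locus, singly or together (labelled Dtheta1, Dtheta2 and Dt1t2). The edits were made with CRISPR-Cas9 and the mice were homozygous. Each of the 6 conditions had 3 samples, and the 3 comparisons of experiment 2 share the same WT samples. No edit lies on chromosome 7, so the comparisons ask whether contacts of an unedited globin locus differed between these mice and their controls.

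Olfactory receptors are odorant-binding membrane proteins of sensory neurons, and their genes are not known to act in red cells. The β-globin promoters are known to contact the enhancers of the locus control region in erythroid cells, within a domain bounded by CTCF-bound sites. Contact counts fall with distance from a viewpoint, and a rise against that trend marks a region met more often than its distance alone would give.

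The viewpoints are named Hbb-b1 and Hbb-b2 in the deposited tables. The viewpoint labelled Hbb-b1, chr7:110961967-110962817, lies in the gene that GENCODE vM1 calls Hbb-b2, and the viewpoint labelled Hbb-b2, chr7:110975976-110976456, lies in the gene it calls Hbb-b1. Both names are used below as the tables give them. These fragments share an identical run of 258 bp, and 54.2% to 77.1% of the flank fragments of a sample were listed under both viewpoints, so their summed counts are not counts of independent molecules. Values are counts from both viewpoints per kb, scaled to 100000 counts on chromosome 7 outside 1000 bp of the viewpoints, and are called density. That total ran from 122415 to 144312 in WT of experiment 1 and from 28916 to 79009 in ∆44/48. In experiment 2 it ran from 13178 to 35553 in WT, from 14144 to 47932 in ∆θ2, from 10904 to 29090 in ∆θ1/θ2, and only from 2180 to 5014 in ∆θ1. A single count over a 20 kb bin amounts to a density of 0.0346 to 0.0408 in WT of experiment 1 and of 0.997 to 2.29 in ∆θ1.

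Sample 3 of ∆44/48 stands apart in fragments without counts. Of the cluster fragments where at least 10 counts were expected from the WT samples, 17 of 276 had no count in it, whereas none of 216 and none of 283 lacked counts in ∆44/48 samples 1 and 2. On the 3′ flank 2 of 40 such fragments had no count in sample 3, and on the 5′ flank 0 of 47. Results that rest on sample 3 are therefore given with and without it where both were computed. Sample 1 of ∆44/48 differed in other ways. In it 41.3% of the β-globin counts lay on other chromosomes, against 30.4% and 31.1% in samples 2 and 3. The chi-square per degree of freedom over 20 kb bins was 2.34 and 2.40 for the pairs with sample 1 and 1.92 between samples 2 and 3. The cause was not tested. In ∆θ1, samples 1 and 3 did not differ beyond sampling noise in a chi-square test over the 31 bins with enough counts (p = 0.246), whereas the other pairs of ∆θ1 had p = 0.0451 over 35 bins and p = 0.0542 over 14 bins. They were kept as separate samples, since their values were not identical and few counts leave that test little power.

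CTCF sites are known to mark the ends of contact domains, so the flanks were searched on both strands for CCANNAGGNGGC, a short form of the CTCF core motif. NCBIM37 holds 1575 matches on chromosome 7, and 18.97% of its 7057 windows of 20 kb hold at least 1. The flanks hold 4, in 4 of their 93 bins of 20 kb, and the cluster between them holds 3. The matches of the flanks, and the most similar match of the cluster, are shown with 24 bases on each side, on the strand that carries the motif and with the match in capitals. They are shown because the fragment with the most counts on the 3′ flank, which is 2003 bp long, holds a match.
3′ flank, chr7:110916179-110916238, minus strand, Olfr69: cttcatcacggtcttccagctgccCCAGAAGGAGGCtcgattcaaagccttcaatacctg
cluster, chr7:110926127-110926186, minus strand, Olfr68: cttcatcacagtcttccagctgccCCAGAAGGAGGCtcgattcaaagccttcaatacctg
3′ flank, chr7:110040458-110040517, plus strand, outside genes: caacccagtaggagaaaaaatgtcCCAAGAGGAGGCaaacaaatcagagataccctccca
5′ flank, chr7:111379909-111379968, minus strand, Trim6: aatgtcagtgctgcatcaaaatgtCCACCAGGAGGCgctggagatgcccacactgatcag
5′ flank, chr7:111841641-111841700, plus strand, outside genes: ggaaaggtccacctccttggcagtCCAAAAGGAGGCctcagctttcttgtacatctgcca
The windows in Olfr69 and Olfr68, which are neighbouring olfactory receptor genes, were identical at 59 of 60 bases. A match is a run of letters and not a bound site, and CTCF binding was not analysed here.

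The 3′ flank is almost purely olfactory. GENCODE vM1 places 55 protein-coding genes on it, of which 53 are olfactory receptor (Olfr) genes, and the others are the deubiquitinase genes Dub2a and Usp17l5. The 5′ flank has 26 Olfr genes among 42 protein-coding genes. Its remaining 16 genes include 10 Trim genes, a family that includes antiviral restriction factors, the deubiquitinase genes Dub3 and Dub1a, and 4931431F19Rik and E030002O03Rik. From the cluster outwards the 5′ flank carries mainly Olfr genes up to Olfr649, then the Trim genes, a further block of Olfr genes and the Dub genes. Olfr and Trim genes have close copies. Fragments never listed under either β-globin viewpoint in any sample make up 23.4% of the 3′ and 29.2% of the 5′ flank fragments, with median lengths of 59 and 72 bp. Where a share of a bin, gene or stretch is given below, fragments never listed are those without a count under any viewpoint.

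In WT cells of experiment 1 the flanks had overlapping densities. The 3′ flank had densities of 6.87, 7.20 and 6.77 and the 5′ flank had 6.76, 7.06 and 6.91 in WT samples 1, 2 and 3. The means were 6.95 ± 0.225 (SD, n = 3) and 6.91 ± 0.152, and the log2 ratio of the 5′ over the 3′ flank was −0.0081 ± 0.032. Neither flank was the higher in all 3 samples. In WT cells of experiment 2 the 3′ flank had 5.69, 6.14 and 4.91 and the 5′ flank had 5.95, 6.56 and 6.37. Here the 5′ flank was higher in 3 of 3 samples, with a log2 ratio of 0.18 ± 0.17. The experiments differ in depth and were not compared by a test. The cluster between the flanks took 45.98% to 50.5% of the chromosome 7 counts of WT samples in experiment 1 and each flank took 6.23% to 6.64%.

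Although their totals were alike, the flanks differed in shape. On the 3′ side the 3 bins with the highest density were those next to the cluster. The bin chr7:110880000-110899999, with Olfr628 and Olfr629, had 49.6, 48.7 and 47.7 in the WT samples of experiment 1. The bin chr7:110900000-110919999, with Olfr630 and part of Olfr69, had 47.5, 49.4 and 46.3, and the bin chr7:110860000-110879999, with Olfr243, had 44.7, 46.7 and 43.1. These 3 bins had means of 44.8 to 48.7 and formed a plateau. It ended at the next bin, chr7:110840000-110859999, which had 31.8 ± 1.87, while the bin beyond it, with Olfr625-ps1, had 13.8. This 2.30-fold step was the steepest between neighbouring bins of the 3′ flank. It was 2.34, 2.17 and 2.43-fold in the WT samples of experiment 1 and 1.65, 1.46 and 5.66-fold in those of experiment 2.

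The 5′ flank began higher and fell faster. Its first bin, chr7:111060001-111080000 with Olfr631, had 88.0, 93.2 and 87.2 in the WT samples of experiment 1, although fragments never listed cover 24.1% of it. The next, chr7:111080001-111100000 with Olfr632 and Olfr633, had 70.3, 69.7 and 66.2, and the third, chr7:111100001-111120000 without a protein-coding gene, had 19.4, 21.4 and 22.7. The step between the second and the third bin was 3.63, 3.26 and 2.92-fold, and in WT of experiment 2 it was 3.16, 3.29 and 2.24-fold. All 18 samples had a step of at least 2.17-fold here. The steepest fall next to the cluster thus lay 40 kb from its edge on the 5′ side and 80 kb on the 3′ side. The 5′ edge is 90.7 kb from the midpoint between the viewpoints and the 3′ edge is nearer to it. These distances therefore do not show that the falls lie at different distances from the viewpoints.

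**Figure D1:**
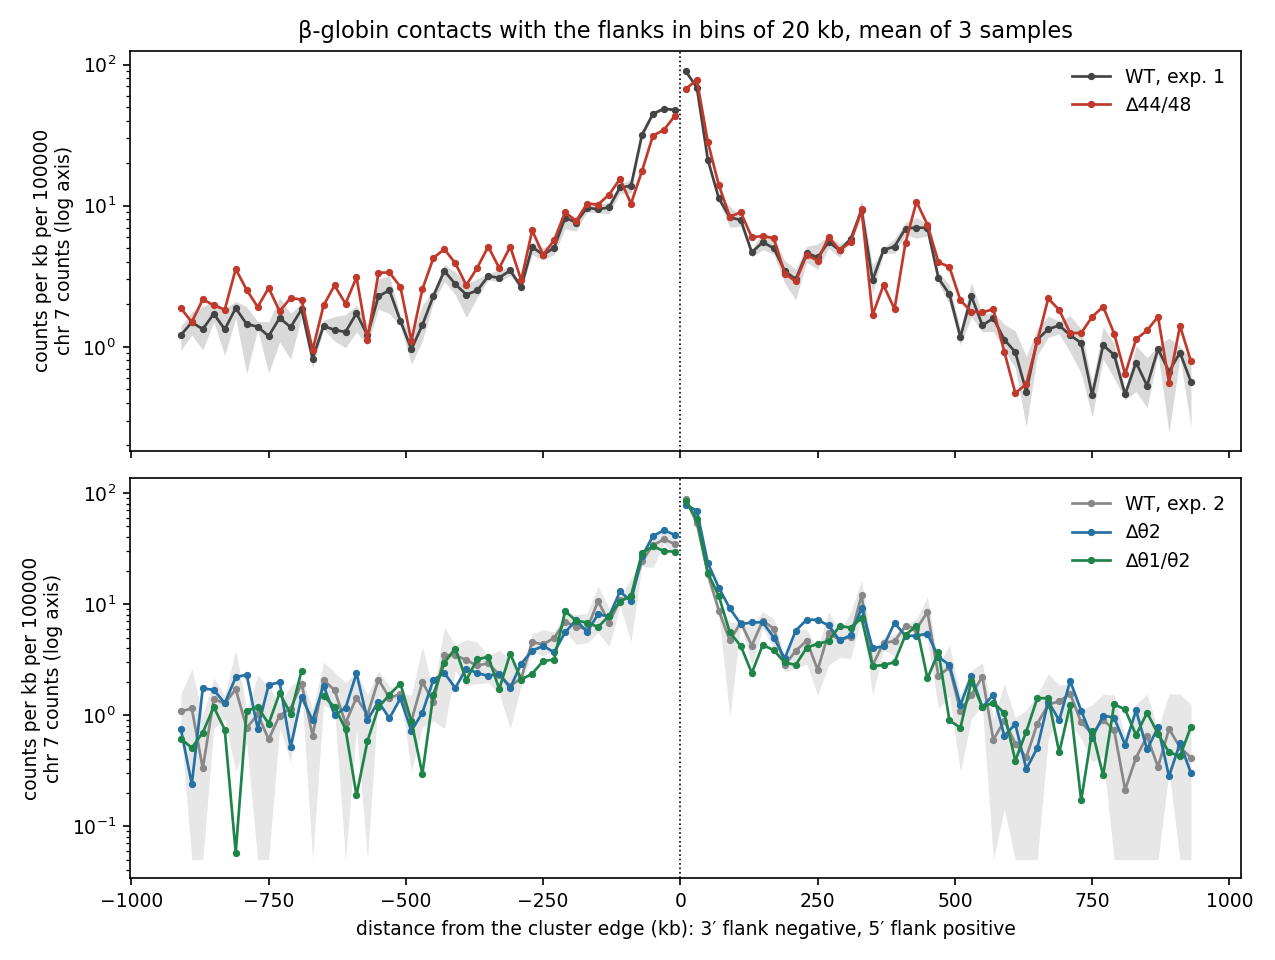
Mean density (counts per kb per 100000 chromosome 7 counts, log axis) of each 20 kb bin against the distance from the cluster edge in kb, for experiment 1 (upper panel) and experiment 2 (lower panel, ∆θ1 left out for its low counts). Lines join means of 3 samples, a bin without counts in ∆θ1/θ2 is not drawn, and the grey band is the range of the 3 WT samples. The 3′ flank shows a plateau and a step, and the 5′ flank a sharper fall and a second rise between about 220 and 460 kb.

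Further out the 5′ flank rose again. In WT of experiment 1 the bin with Olfr646 at 180 to 200 kb from the cluster had 3.45 and the bin with 4931431F19Rik beyond it 3.01, while the bin chr7:111380001-111400000, which holds parts of Trim6 and Trim34a, had 11.1, 8.59 and 8.08. That bin was 2.01 times the mean of its 2 neighbours on each side, the largest such ratio on the 5′ flank. The ratio was over 1 in 14 of the 15 samples that did not choose it, with a median of 2.17 and a range of 0.457 to 4.01. The exception was ∆θ1 sample 1, in which the bin had a density of 2.97. The other bins chosen in this way did not stand out as often. The bin of Trim12c and Trim30b, chr7:111500001-111520000, was 1.44 times its neighbours and was over 1 in 9 of 15 samples, and that of Olfr659 and Olfr661 in 7 of 14. On the 3′ flank, the bin with a part of the Dub2a gene, chr7:110380000-110399999, was 1.68 times its neighbours and was over 1 in 11 of 15 samples, that of Olfr599 and Olfr600 in 9 of 15, and that of Olfr584 in 12 of 14.

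Then 6 gene stretches of the 5′ flank were each set against the 3′ interval at the same distance from the midpoint between the viewpoints. The 134.57 kb from Trim6 to Trim12c had densities of 6.41, 5.81 and 6.01 in WT of experiment 1, and the 3′ interval had 2.46, 2.42 and 2.56. The log2 ratio was 1.29 ± 0.080 (SD, n = 3), and in WT of experiment 2 it was 1.23 ± 0.55. The Trim6 to Trim12c stretch was the higher in 18 of 18 samples. Fragments never listed cover 5.49% of this stretch and 4.81% of the 3′ interval.

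The Olfr genes next to the cluster were higher than their 3′ interval in 18 of 18 samples too, with 23.05 ± 0.65 against 15.6 ± 0.57 in WT of experiment 1. The stretch of Olfr648 and Olfr649 was higher in 16 of 18 samples, with 5.59 ± 0.36 against 3.46 ± 0.27. The stretch from Trim30b to Trim30d was higher in 15 of 18 samples, with 2.27 ± 0.089 against 1.65 ± 0.14. The order turned in the outermost stretches. The outer Olfr genes, Olfr651 to Olfr664, had 0.994 ± 0.11 against 1.51 ± 0.16 on the 3′ side and were higher in only 3 of 18 samples, and the stretch from Dub3 outwards was higher in 4 of the 15 samples with a count on either side. Most of the 3′ interval of the Dub3 stretch, chr7:109938608-110021783, lies beyond the outer end of the 3′ flank.

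**Figure D2:**
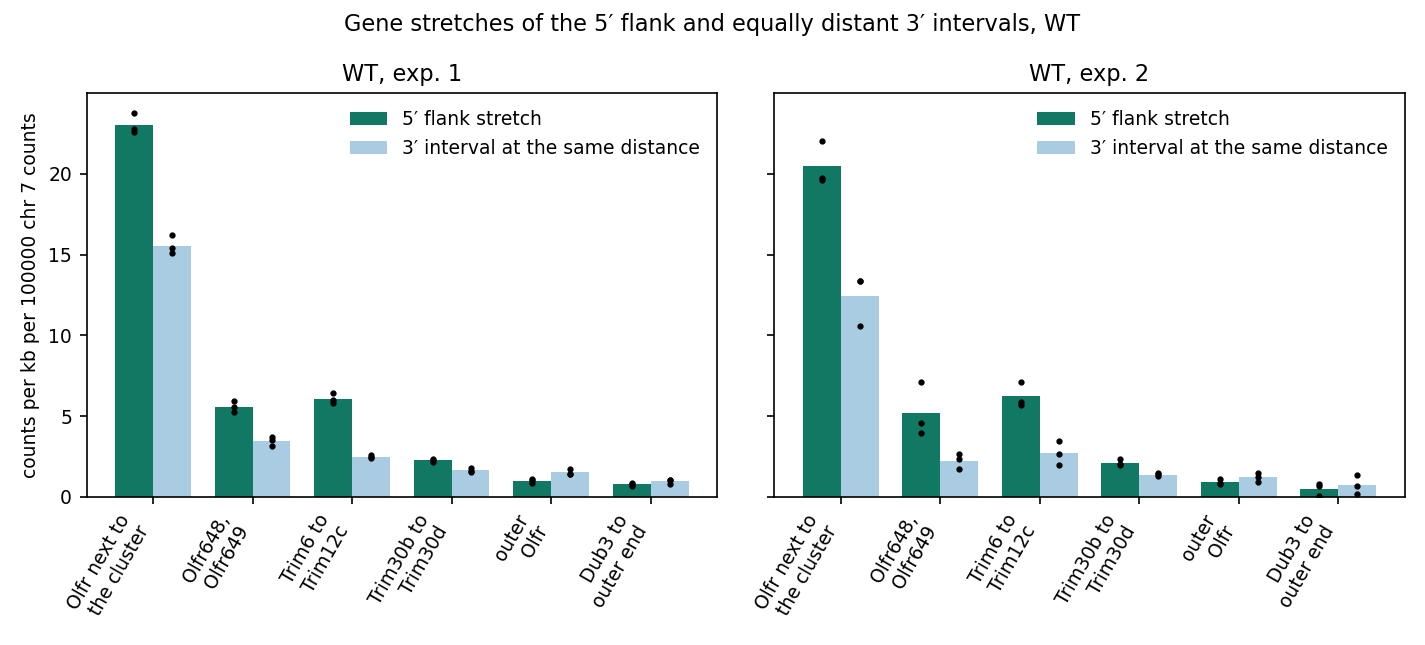
Density of 6 gene stretches of the 5′ flank (dark bars) and of the 3′ intervals at equal distance from the viewpoints (light bars) in WT of both experiments. Bars are means and points the 3 samples, and the Trim6 to Trim12c stretch lies above its 3′ interval in every WT sample.

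Single fragments gave the same order. The 5 strongest of the 5′ flank all have their midpoint within 3.52 kb of its inner edge. The fragment chr7:111060064-111060884, outside genes, had 147, 154 and 161 counts per 100000 in WT of experiment 1, and chr7:111062924-111064116, which overlaps Olfr631, had 139, 158 and 136. The others of the 5 had means of 136 to 148. On the 3′ flank the strongest fragment was chr7:110914539-110916541 in Olfr69, with 68.6, 49.9 and 72.3, and it is the fragment that holds the motif match shown above. It is also 2003 bp long, and counts per fragment rise with length. Its mean count of 63.6 over that length is a lower density than the 47.7 of its 20 kb bin. The remaining 4 had means of 43.1 to 45.9, and 2 of them, chr7:110916906-110917177 and chr7:110919567-110919958, also overlap Olfr69. In WT of experiment 2 the strongest fragment had 43.3, 33.8 and 75.9, while chr7:110919567-110919958 had 43.3, 0 and 0, from 7, 0 and 0 counts. The other motif matches did not fall on strong fragments. The fragment of the match in Trim6 had 5.03 ± 3.2, the match at the outer end of the 3′ flank had 0.462 ± 0.80, and the match on the outer 5′ flank had no count in WT of experiment 1.

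The olfactory receptor genes spanned a wide range of levels. Fragments over the 61 Olfr genes and pseudogenes of the 3′ flank had a median density of 3.52 in WT of experiment 1, from 0.459 to 75.7, and those over the 33 of the 5′ flank had a median of 4.49, from 0.214 to 75.8. The highest on the 3′ side were Olfr69 with 75.7 ± 2.4, Olfr243 with 60.7 ± 8.8 and Olfr630 with 44.6 ± 3.7. The highest on the 5′ side were Olfr632 with 75.8 ± 15, Olfr633 with 72.6 ± 5.0 and Olfr631 with 51.1 ± 4.2. Olfr69 and Olfr632 do not differ beyond their spread.

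Against what their own 20 kb bin would give, fragments over Olfr genes had 1.20 ± 0.010 times the expected counts on the 3′ flank in WT of experiment 1, and 0.720 ± 0.028 times on the 5′ flank. Over all 18 samples the value ran from 0.836 to 1.48 on the 3′ flank and from 0.576 to 0.962 on the 5′ flank. It was under 1 on the 5′ flank in all 18 samples. Fragments over Olfr631 alone make up 15.7 of the 86.2 kb over Olfr genes on the 5′ flank. They had a density of 51.1 ± 4.2 in WT of experiment 1 where the bin of Olfr631 had 89.5. Fragments never listed cover 30.9% of them. The value without Olfr631 was not computed, so it is not known for the other Olfr genes of the 5′ flank. Fragments differ in length, GC content and mappability, and the share of these in the difference between the flanks was not tested.

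The viewpoint labelled Hbb-b2 lies closer to the 5′ flank than that labelled Hbb-b1. Its 5′ over 3′ log2 ratio was the larger of the pair in 14 of 18 samples, with a median difference of 0.061 and a range of −0.095 to 0.64. Both viewpoints share listings, as described above, so the ratios are not independent.

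The flank totals of the deletions were compared with the WT of the same experiment by edgeR's quasi-likelihood test over 10 intervals that tile chromosome 7, with Benjamini-Hochberg adjustment and a threshold of 0.01. In ∆44/48 the 3′ flank had 6.26, 7.12 and 6.57 and the 5′ flank 6.21, 6.99 and 7.88 in samples 1, 2 and 3, so both overlapped with WT. The log2 changes were −0.06 (SE 0.094, adjusted p = 0.57) and 0.03 (SE 0.092, adjusted p = 0.77). Of the 10 intervals tested 6 were called, a background of 60%, and both flanks were among the others. The cluster itself was lower by a log2 change of −0.35 (adjusted p = 0.0017), and the counts beyond 1 Mb of the cluster took 46.5% to 52.1% of chromosome 7 in ∆44/48 against 36.8% to 41.2% in WT. The flank values are relative to this total. Scaled by TMM factors, the log2 changes were −0.30 on the 3′ (adjusted p = 0.0033) and −0.22 on the 5′ flank (adjusted p = 0.0067), and with counts within 2 Mb of the cluster as the total 0.15 (adjusted p = 0.21) and 0.25 (adjusted p = 0.056), so neither direction holds across scalings.

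**Figure D3:**
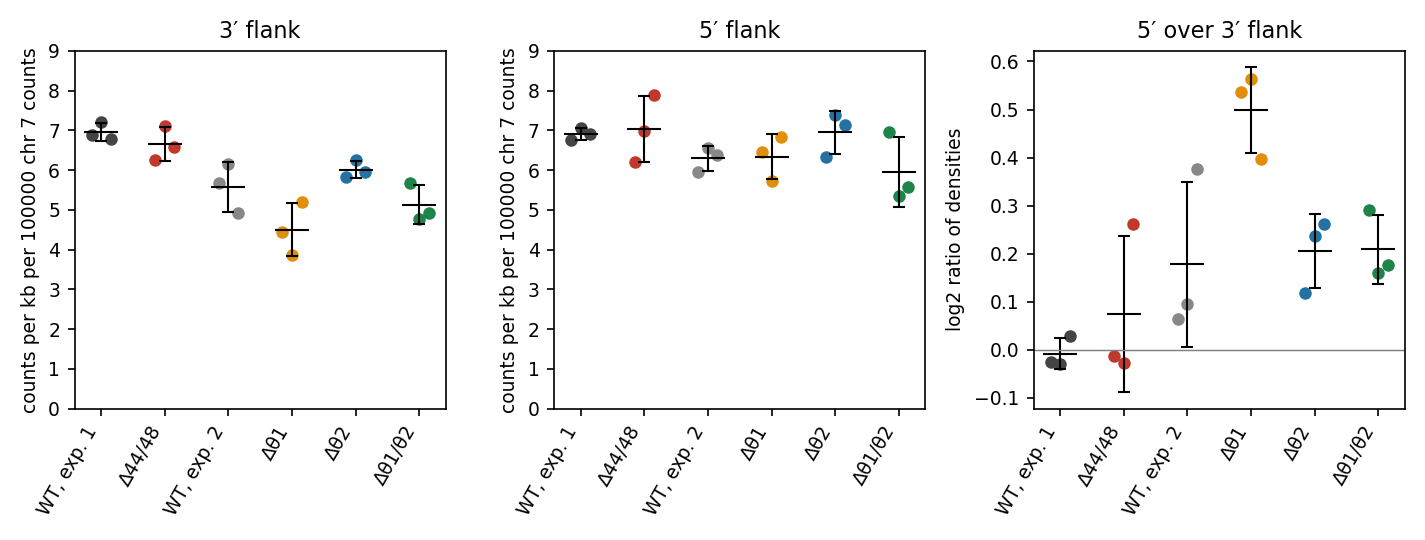
Density of the 3′ flank, of the 5′ flank, and the log2 ratio of the 5′ over the 3′ flank in each of the 18 samples. Points are samples, bars are means with SD (n = 3), and 3 of 3 ∆θ1 ratios lie above those of the WT of experiment 2.

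In ∆θ1 the 3′ flank had 4.44, 3.87 and 5.19 against 5.69, 6.14 and 4.91 in WT, a log2 change of −0.32 (SE 0.14, adjusted p = 0.041) that did not pass the threshold. The 5′ flank had 6.45, 5.72 and 6.83, a log2 change of 0.01 (SE 0.14, adjusted p = 0.96). Again 6 of 10 intervals were called, a background of 60%. The cluster was lower by a log2 change of −0.55 (adjusted p = 0.00066). Counts beyond 1 Mb of the cluster took 55.6% to 63.3% of chromosome 7 in ∆θ1 against 41.13% to 50.02% in WT. Of the β-globin counts 41.8% to 47.5% lay on other chromosomes in ∆θ1 against 30.9% to 35.8% in WT. The flank values of ∆θ1 are relative to the chromosome 7 total. Without WT sample 3 the change of the 3′ flank was −0.41 (adjusted p = 0.0038), and with DESeq2 −0.62 (adjusted p = 0.0078), which passed the threshold, while with counts within 2 Mb as the total it was 0.06 (adjusted p = 0.60) and that of the 5′ flank 0.38 (adjusted p = 0.023). In ∆θ2 both flanks lay slightly above WT, with 5.84, 6.25 and 5.95 on the 3′ and 6.33, 7.37 and 7.14 on the 5′ side (log2 changes 0.10 and 0.14, adjusted p = 0.62 for both). In ∆θ1/θ2 they had 5.68, 4.78 and 4.93, and 6.95, 5.34 and 5.57 (log2 changes −0.12 and −0.07, adjusted p = 0.73 for both). No interval was called in either comparison, a background of 0%.

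The log2 ratio of the 5′ over the 3′ flank does not depend on the total of the chromosome. It was −0.01, −0.03 and 0.26 in ∆44/48, and the difference of 0.083 from WT rested on sample 3, without which it was −0.011. In ∆θ1 it was 0.54, 0.56 and 0.40, above the WT values of 0.064, 0.094 and 0.38 in all samples, a difference of 0.32 (two-sided exact permutation p = 0.1). This is the smallest p that 3 against 3 samples can give. The counts behind the 3′ flank of ∆θ1 were few, and with the viewpoint labelled Hbb-b1 alone the difference was 0.17 (exact permutation p = 0.3). In ∆θ2 and ∆θ1/θ2 the ratio averaged 0.21 in both, against 0.18 in WT (exact permutation p = 0.8 for both).

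Although the totals were alike, ∆44/48 differed from WT along the flanks. Within 100 kb of the cluster the 3′ flank had 28.5, 32.8 and 20.9 against 37.6, 38.7 and 35.8 in WT, which did not overlap. From 300 to 600 kb it had 2.57, 3.03 and 4.52 against 2.25, 2.36 and 2.33, and beyond 600 kb 1.94, 1.96 and 2.43 against 1.34, 1.59 and 1.31, so these were above all WT samples. On the 5′ flank the bins within 100 kb had 32.6, 40.9 and 44.0 against 39.1, 40.8 and 39.5, which overlapped, and those beyond 600 kb had 1.12, 1.08 and 1.496 against 0.718, 0.866 and 1.02, again above all WT samples. All 5 bins of the 3′ flank within 100 kb were lower, and 39 of 41 beyond it were higher. The latter had a median log2 change of 0.45 where the median over all 3827 bins of chromosome 7 was 0.30. This tally was not repeated without sample 3, the highest ∆44/48 sample in the 3′ zones from 300 kb outwards. On the 5′ flank 3 of 5 bins within 100 kb and 29 of 42 beyond it were higher, the latter with a median of 0.16. The zones not given here overlapped with WT.

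Of the 93 flank bins tested, 2 were called, both lower, where the background over chromosome 7 was 0.157% (6 of 3827). The bin chr7:111440001-111460000, which holds parts of Trim34a, Trim12a and Trim34b, had 4.98, 5.83 and 4.60 in WT and 2.96, 2.42 and 0.167 in ∆44/48 (log2 change −1.56, SE 0.31, adjusted p = 0.00041). The bin chr7:110840000-110859999, which forms the step at the end of the 3′ plateau and holds no protein-coding gene, had 32.2, 33.4 and 29.7 in WT and 19.04, 26.5 and 7.26 in ∆44/48 (log2 change −0.85, SE 0.18, adjusted p = 0.0032). All 3 ∆44/48 samples lay below all WT samples in both bins, and sample 3 was the lowest. Without ∆44/48 sample 3 no flank bin was called, and without WT sample 2 none was called either. The Trim bin was also lost with the viewpoint labelled Hbb-b1 alone, and the 3′ bin without WT sample 1, without WT sample 3 or with counts within 2 Mb as the total. DESeq2 called neither of them, but 1 other flank bin, chr7:110880000-110899999. With the called bins, 28 of the 93 had an unadjusted p under 0.05, 20 of them higher, or 30.1% against 7.73% of all bins of chromosome 7. Without ∆44/48 sample 3 there were 11, and with TMM factors or DESeq2 13. The bins of smallest p among those higher were those of Olfr659 (log2 change 1.77, adjusted p = 0.098) and of chr7:110160000-110179999 (1.12, adjusted p = 0.24), which did not pass.

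**Figure D4:**
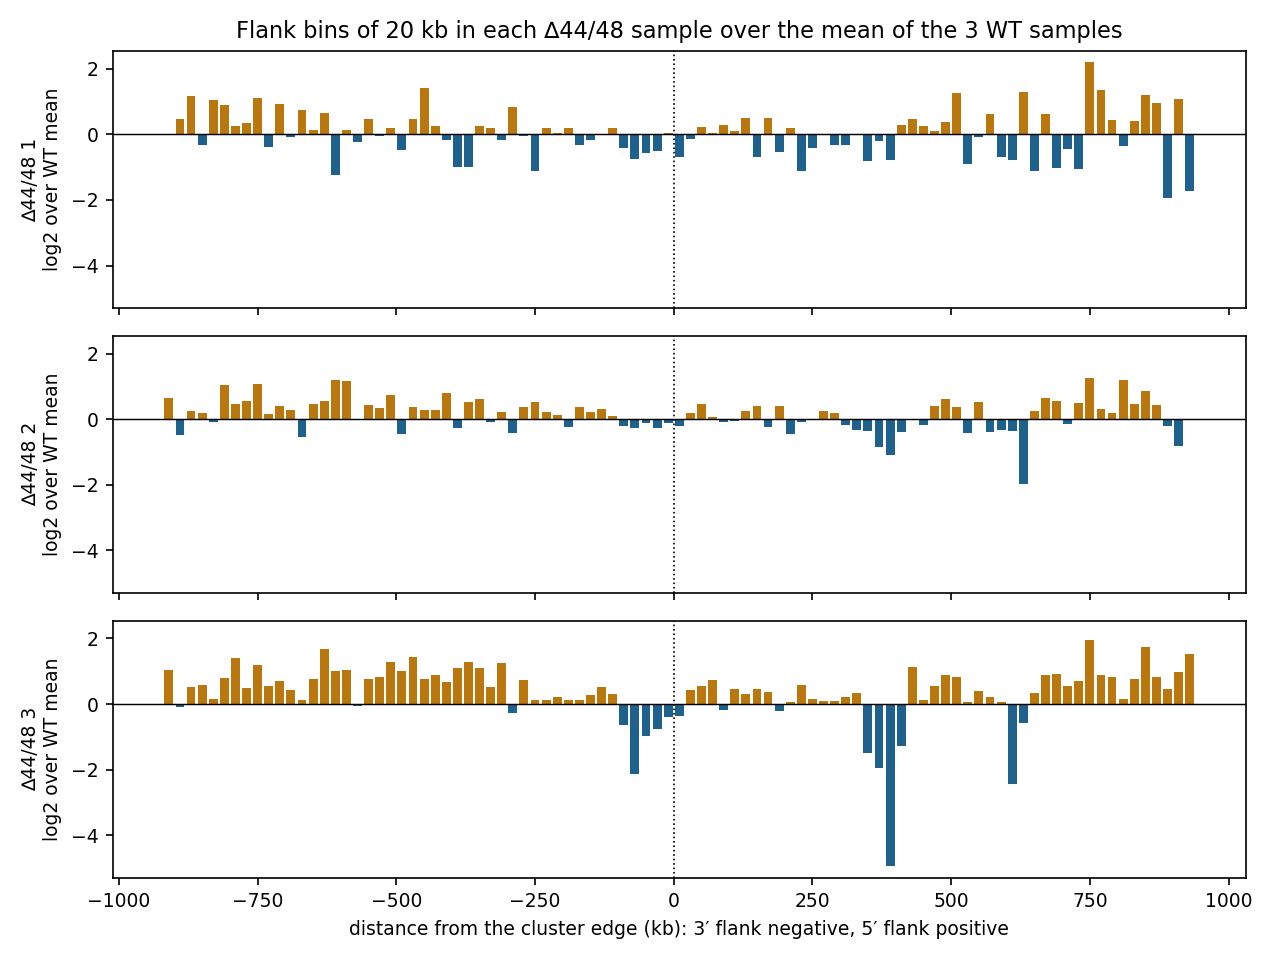
Log2 ratio of the density of each 20 kb bin in ∆44/48 samples 1, 2 and 3 over the mean of the 3 WT samples, against the distance from the cluster edge in kb. Sample 3 lies below 0 in all 5 bins of the 3′ flank within 100 kb and in the 4 bins from 340 to 420 kb on the 5′ flank, with its lowest value of −4.94 at 380 to 400 kb.

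The low bins of sample 3 form runs. In the called Trim bin it had 2 counts where 61.7 were expected from WT, and in the called 3′ bin 88 where 386 were expected. Samples 1 and 2 had 17 and 38 counts in the Trim bin where 29.7 and 81.1 were expected. Over the 4 bins from chr7:111400001 to chr7:111480000, which hold Trim34a, Trim5, Trim12a and Trim34b, the density was 5.05, 4.86 and 4.92 in WT and 4.29, 3.15 and 1.33 in ∆44/48. Next to it, the 2 bins of Trim6 had 8.54, 7.26 and 7.00 in WT and 6.93, 6.31 and 9.31 in ∆44/48, and the bins of Trim12c and Trim30b had 7.17, 6.57 and 7.19 in WT and 9.02, 6.50 and 11.6. Sample 3 was therefore the lowest of the 6 in the Trim5 run and the highest on both sides of it. Viewpoints on other chromosomes listed 2, 6 and 2 counts on the run in WT and 0, 2 and 0 in ∆44/48, too few to tell whether it was low from those viewpoints too.

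A single flank fragment of 1493 tested was called in ∆44/48, where the background was 0.441% (24 of 5440). It is chr7:110872836-110872925, 90 bp outside genes and near Olfr243, and it is shown because it carries the whole call: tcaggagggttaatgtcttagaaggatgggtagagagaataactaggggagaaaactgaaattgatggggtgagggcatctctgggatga
It had 8.17, 28.4 and 11.9 counts per 100000 in WT and no count in 3 of 3 ∆44/48 samples (edgeR, adjusted p = 0.0056). With 10, 41 and 15 counts in the WT samples, it passed the filter of at least 10 counts through WT alone. It was not called when any 1 of the 6 samples was left out, nor with DESeq2, the replicate block or either viewpoint alone, and the viewpoint labelled Hbb-b2 alone gave 1 other called fragment, on the 5′ flank. The reported fragment was picked by its call and had no ∆44/48 count, so no fold change is given. In WT of experiment 2 it held counts in 1 of 3 samples.

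The other deletions had no called flank bin or fragment. In ∆θ1 0 of 82 bins and 0 of 190 fragments were called (backgrounds 0.0977% and 0.377%), with 2 bins and 4 fragments at an unadjusted p under 0.05 (2.44% and 2.11%, against 4.98% and 12.4% of all tested). In ∆θ2 0 of 93 bins and 0 of 387 fragments (backgrounds 0% and 0%), with 4 bins and 16 fragments at that level (4.301% and 4.13%, against 5.73% and 5.25% of all), and in ∆θ1/θ2 0 of 92 bins and 0 of 299 fragments (backgrounds 0% and 0%), with 2 bins and 11 fragments (2.17% and 3.68%, against 3.72% and 5.30% of all). DESeq2 called none in these comparisons. In simulated data, 4-fold changes in 46 flank bins were found by edgeR in 80.4% of bins for ∆44/48, 37.0% for ∆θ2, 8.70% for ∆θ1/θ2, and in 41 bins in 7.32% for ∆θ1, and 2-fold changes in none of these bins. The measured ∆44/48 data gave a called bin at a log2 change of −0.85 (SE 0.18), so the simulation sets no firm limit on what was detectable. A 2-fold change of a single flank bin may still have been missed at this depth.

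Among the bins of smallest p in these comparisons, that of E030002O03Rik had a log2 change of 1.37 in ∆θ2 (SE 0.45, adjusted p = 0.59) and 1.25 in ∆θ1 (adjusted p = 0.58), neither of which passed. The bin of Trim12c and Trim30b had the smallest p among the lower bins in ∆θ1 (log2 change −1.96, adjusted p = 0.58), ∆θ2 (−0.64, adjusted p = 0.998) and ∆θ1/θ2 (−1.74, adjusted p = 0.81). Its densities were 11.5, 4.81 and 9.04 in the WT samples that all of these comparisons share, 2.07, 0 and 4.75 in ∆θ1, 4.52, 4.76 and 6.96 in ∆θ2, and 4.63, 0.950 and 0.835 in ∆θ1/θ2.

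The viewpoints on other chromosomes listed few counts on the flanks. In WT of experiment 1 they gave 182 counts on the 3′ and 217 on the 5′ flank, or 198 and 231 per Mb, against 270 per Mb over the rest of chromosome 7 and 1863 per Mb in the cluster. The flanks were therefore not above the rest of chromosome 7 from these viewpoints.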

How the data were processed

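NG Capture-C interaction counts of 18 samples were used. Per the labels and the methods of the study, the authors trimmed reads with Trim Galore, aligned them to mm9 with Bowtie and removed PCR duplicates. The deposited counts are unique interactions per viewpoint and DpnII fragment, are not normalised, and leave out fragments without a count. All 117924 listed fragments of chromosome 7 matched (same start and end) a DpnII digest of NCBIM37, and 0 columns were left out. Counts of both β-globin viewpoints were summed, those less than 1000 bp away from either viewpoint were dropped, and a fragment belonged to the interval of its midpoint.

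Each deletion was tested against the WT of its own experiment with edgeR 4.0.16 in R 4.3.3 (quasi-likelihood, chromosome 7 total as library size, features with at least 10 counts over 6 samples), and DESeq2 1.42.0 was an alternative. Ratios were compared by two-sided exact permutation. Replicates are separate samples by the labels. The methods call them biological replicates, but nothing used here ties each to its own animal, so p-values measure the spread between these samples. Tests were checked on simulated data. Summaries used Python 3.11.15, numpy 2.4.6, pandas 2.3.3 and matplotlib 3.10.9. Bins, fragments and genes were named by rank: the 3 densest 20 kb bins, the 3 bins highest over their neighbours, the 5 strongest fragments and the 3 densest Olfr genes per flank, and per comparison all calls and the 2 bins of smallest p each way, of which those the text omits did not pass and 1 gene is not reported here. The members, lists and stretches were chosen with earlier results of these data known, and the stretches and motif after the values were seen. Intervals and floors cover counting error only.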

Additional observations from a re-analysis of the deposited data

Results flagged for a closer look

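Each pair of deletions was screened in the zones 0 to 100, 100 to 300, 300 to 600 and beyond 600 kb of each flank. The flank totals, their ratio and the 6 gene stretches were screened too. In 3 places all samples of ∆44/48 lay above and all of ∆θ1 below the WT samples of their own experiment, and the difference between these deletions was not tested. The outer Olfr genes lie inside the 5′ zone beyond 600 kb, so these places are not separate. The median log2 change over all tested bins of chromosome 7 was 0.30 in ∆44/48 and 0.24 in ∆θ1. Beyond 600 kb on the 3′ flank ∆44/48 had 1.94, 1.96 and 2.43 against WT at 1.34, 1.59 and 1.31, and ∆θ1 had 0.686, 0.227 and 0.717 against WT at 0.813, 1.31 and 1.38, so the log2 changes were 1.68 apart. Beyond 600 kb on the 5′ flank the log2 changes were 0.912 apart, with ∆44/48 at 1.12, 1.08 and 1.496 against 0.718, 0.866 and 1.02, and ∆θ1 at 0.469, 0.641 and 0.539 against 0.655, 0.843 and 0.692. Over the outer Olfr genes of the 5′ flank they were 1.96 apart, with ∆44/48 at 1.20, 1.41 and 1.75 against 0.870, 1.03 and 1.08, and ∆θ1 at 0.440, 0.602 and 0 against 1.09, 0.870 and 0.796. The ∆θ1 counts behind these values were 11, 2 and 5 on the 3′ side, 8, 6 and 4 on the 5′ side, and 4, 3 and 0 over the outer Olfr genes, where the count of 0 allows a density of up to 0.760.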

How the results depend on the processing

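Of the alternatives tried over all results, 303 were classed as unchanged, 28 turned the direction, 21 moved a count and 4 kept the direction but passed the threshold where the reported value did not. Of those that turned the direction 2 passed it as well, which makes 6. For flank totals and ratios, unchanged means the same direction and side of the threshold. For numbers of called bins and fragments it means an equal or close number, so 3 bins instead of 2, or another fragment, was classed as unchanged. The ratio tests could not pass in any setting, since their smallest p is 0.1, so only their direction could change. The flank totals depended on the scaling. With TMM factors the log2 change in ∆44/48 was −0.30 on the 3′ flank (adjusted p = 0.0033) and −0.22 on the 5′ flank (adjusted p = 0.0067), with DESeq2 −0.33 (adjusted p = 0.0073) and −0.25 (adjusted p = 0.0021), with counts within 2 Mb as the total 0.15 on the 3′ and 0.25 on the 5′ flank (adjusted p = 0.21 and 0.056), and with those beyond 1 Mb, a choice made after seeing the data, −0.40 and −0.31 (adjusted p = 0.019 and 0.029). In ∆θ1 the 5′ flank was −0.28 with TMM, −0.29 with DESeq2 and −0.43 with the total beyond 1 Mb, but 0.38 within 2 Mb (adjusted p = 0.023), and the 3′ flank −0.62 with TMM (adjusted p = 0.059), −0.62 with DESeq2 (adjusted p = 0.0078), −0.77 beyond 1 Mb (adjusted p = 0.068) and 0.062 within 2 Mb. In ∆θ1/θ2 the 5′ flank was 0.029, 0.045 and 0.018 with TMM, DESeq2 and the total beyond 1 Mb. A zone around the viewpoints wider by 5 kb gave −0.044 for the 5′ flank of ∆44/48 and −0.074 for that of ∆θ1. The viewpoint labelled Hbb-b1 alone gave −0.096 for the latter, and differences in the 5′ over 3′ ratio of −0.0024 in ∆θ2 and −0.026 in ∆θ1/θ2, where flanks from 20 kb further out gave −0.0010. The cause was not tested.

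Leaving out 1 sample at a time, the 5′ flank ran from −0.064 to 0.11 in ∆44/48, from −0.041 to 0.072 in ∆θ1 and from −0.21 to −0.0027 in ∆θ1/θ2, and the 3′ flank from −0.11 to −0.021 in ∆44/48 and from −0.42 to −0.23 in ∆θ1, where it passed the threshold without WT sample 3 (−0.41, adjusted p = 0.0038). The ratio difference ran from −0.011 to 0.13 in ∆44/48, from 0.26 to 0.42 in ∆θ1, from −0.029 to 0.13 in ∆θ2 and from −0.026 to 0.13 in ∆θ1/θ2. The flank bins called in ∆44/48 ran from 0 to 3, and were 1 with DESeq2 (not among the 2 reported), 1 within 2 Mb, 5 with the total beyond 1 Mb and 1 with the viewpoint labelled Hbb-b1 alone. The viewpoint labelled Hbb-b2 alone left 1 flank fragment called, but not the one reported. The flank fragments called were 0 without any 1 sample, with DESeq2, within 2 Mb, with the viewpoint labelled Hbb-b1 alone, with the larger of the 2 viewpoint counts, and with at least 30 counts or at least 1 count.

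With the replicate number as a block, the 3′ and 5′ flanks were −0.06 and 0.02 in ∆44/48, −0.32 and 0.01 in ∆θ1, 0.11 and 0.14 in ∆θ2, and −0.12 and −0.09 in ∆θ1/θ2. The block left 2 flank bins called in ∆44/48 and 0 in the others, and 0 fragments, so the block removed only the fragment call. Deviations of same-numbered samples correlated between −0.19 and 0.063, so the numbers were not taken as pairs.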
